A study of Homo sapiens with 10 samples.

Results

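WM902B is a BRAF-mutant melanoma cell line from a primary tumour, and the comparison described here set its encorafenib and binimetinib resistant derivative against the original, drug-sensitive line. It rests on 2 of the 10 libraries of the series, 1 sensitive and 1 resistant, chosen by their sample labels alone. The whole series holds 5 melanoma lines in both states, and the 4 others (WM983A, WM983B, WM278 and WM1617) appear below only for values set side by side. Resistant WM902B cells were obtained by passage in encorafenib plus binimetinib, starting at 1 nM and reaching 200 nM within 3 to 5 months, and stayed at 200 nM thereafter, while both states were grown in the same serum-supplemented medium. Whether the resistant population was 1 clone is not given in the sources used here. Because it was kept in drug, the acquired state and the presence of the inhibitors cannot be told apart in this comparison, and as there was 1 library per state no test was possible and all differences are descriptions of these libraries.

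Encorafenib blocks the mutated BRAF kinase and binimetinib blocks MEK, the kinase directly below it, so together they silence the RAS, RAF, MEK and ERK cascade on which BRAF-mutant melanomas depend for growth. Melanoma cells inherit the transcription programme of the neural crest, in which SOX10 drives MITF and with it the pigment genes, and SOX10 also maintains genes shared with Schwann cells. Melanoma cells under drug are known to leave this programme for less differentiated states that carry other growth factor receptors, secreted factors and matrix proteins.

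The sensitive library held 15458683 counts and the resistant library 14977486, so that a single count equalled 0.0647 and 0.0668 CPM (counts scaled by the library total, not corrected for gene length), respectively. Genes were kept if they had at least 20 counts in either library, and 16467 of 57955 passed, 12818 of them protein-coding. The log2 ratio of resistant to sensitive CPM was taken after 1 CPM was added to both, and "higher" or "lower" below means at least 2-fold on that scale. In all, 2283 genes (13.9% of those kept) were higher in the resistant library and 1573 (9.55%) were lower, and these percentages are the background against which each gene list should be read. The median log2 ratio of all genes kept was 0.03, with an SD of 1.16 across genes. Differences of at least 8-fold were seen for 302 higher and 205 lower genes. Across 19422 genes the resistant library correlated more closely with its own sensitive library (Pearson's r = 0.906, a description across genes) than with any other. The sensitive library, however, was closer still to several libraries of other lines. These were WM1617 resistant (r = 0.949) and sensitive (0.942), WM983A sensitive (0.934) and WM983B sensitive (0.928).

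**Figure D1:**
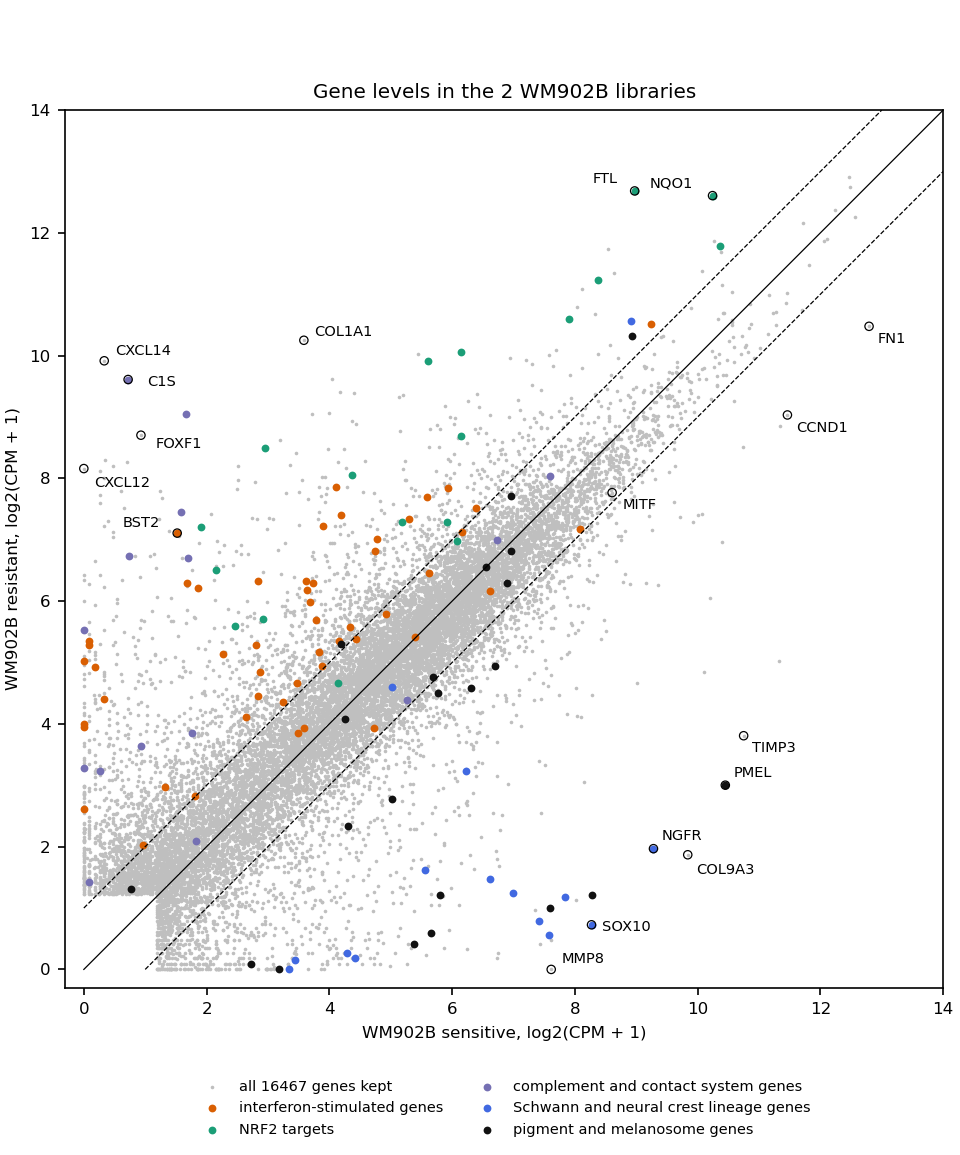
Level of each of the 16467 genes kept, as log2(CPM + 1), in the sensitive (x axis) and resistant (y axis) WM902B library, with 5 gene lists coloured and 17 genes named. The solid line marks equal levels and the dashed lines a 2-fold difference. SOX10, NGFR and PMEL lie at the lower right, CXCL14, C1S and CXCL12 at the upper left, and NQO1 and FTL at the top.

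The sensitive library held the markers of a melanoma line. SOX10 stood at 308 CPM, MITF at 389, PMEL at 1399, MLANA at 192 and S100B at 170, all far above the kept minimum. The resistant library kept MITF at 217 CPM, whereas SOX10 was at 0.655 CPM, S100B at 0.732 and MLANA at 1.01. Markers of blood cells were near 0 in both libraries: PTPRC had 4 and 0 counts, CD3E had 1 and 0, and HBB had none. Of 12 keratinocyte markers 3 were kept: KRT10 was level (504 and 567 counts), and DSP (117 and 7) and SFN (20 and 0) were lower. KRT14, not kept, had 2 and 0 counts. Of 10 endothelial markers 3 were kept, with TIE1 (47 and 1 counts) and PECAM1 (30 and 0) lower. VWF (9 and 30 counts) stayed within 2-fold, and CDH5, not kept, had 1 and 0. Only CD68, a lysosomal protein of macrophages that other cells also make, was higher among the blood cell markers (7.33 and 33.9 CPM).

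Fibroblast markers, by contrast, were divided. Of 12 in the file, 7 were kept and 5 of these were higher in the resistant library, with a median log2 ratio of 4.28. COL1A1 was at 11.0 CPM in the sensitive and 1217 CPM in the resistant library, PDGFRB at 9.31 and 298 CPM, and COL3A1 at 0 and 18.4 CPM. PDGFRA (2.04 and 103 CPM) and DCN (0.969 and 4.40 CPM) were higher too. Yet COL1A2, which encodes the chain that pairs with the COL1A1 product in type I collagen, had 3 and 1 counts. THY1 had 2 and 3 counts, and PI16, DPT and MFAP5 had none in either library. LUM (26.7 and 28.1 CPM) and FAP (11.3 and 11.0 CPM) were level. Some fibroblast markers were near 0 in both libraries while others were higher in the resistant one. The COL1A1 message was present without that of its partner chain. Whether other cells had a part in these values was not tested.

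Genes of the melanocyte and Schwann cell programme were among the largest decreases. SOX10 (chr22:37970686-37987422, minus strand, GRCh38) had 4767 counts in the sensitive and 10 in the resistant library, a 462-fold difference with a 95% exact interval of 251 to 964 that covers counting error only. SOX10 is the transcription factor at the head of the programme. Of 15 kept genes of the Schwann and neural crest lineage, 13 were lower and 1 was higher, and their median log2 ratio was -4.23. NGFR, the low-affinity nerve growth factor receptor, was at 621 and 2.91 CPM (log2 ratio -7.32). ERBB3, the neuregulin receptor, was at 191 and 0.467 CPM. Other members were similarly reduced: GPM6B (-5.73 on the log2 scale), S100A1 (-5.15), CDH19 (-4.23) and RXRG (-4.03). The exceptions were L1CAM, an adhesion molecule of neurites, which was higher (479 and 1512 CPM), and the endothelin receptor EDNRB, which stayed within 2-fold (31.3 and 23.4 CPM).

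Most other melanocyte transcription factors did not share the loss of SOX10. Of 9 kept, 3 were lower and none was higher, with a median of -0.79. Besides SOX10 the lower ones were IRF4, which had 180 counts in the sensitive library and none in the resistant, at least 58.1-fold lower, and SOX5 (28.0 and 4.41 CPM). MITF, the master regulator of melanocytes, stayed within 2-fold at a log2 ratio of -0.84, as did PAX3 (-0.77), LEF1 (-0.79), TFAP2A (-0.20) and TBX2 (0.05). MITF and SOX10 therefore parted in WM902B by more than 6 log2 units.

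Pigment genes were mostly low despite the retained MITF message. Of 22 kept, 13 were lower and 2 higher, with a median log2 ratio of -1.74. The structural protein of the melanosome, PMEL, was at 1399 and 7.01 CPM, a 200-fold difference (95% exact interval 165 to 244). DCT, an enzyme of melanin synthesis, was at 311 and 1.33 CPM, and TYR, the rate-limiting enzyme, at 40.8 and 0.334 CPM. The melanosomal transporter SLC24A5 was at 49.6 and 0.504 CPM. Genes of melanosome transport differed less, with RAB27A at 92.7 and 93.2 CPM and MYO5A at 118 and 77.3 CPM. GPNMB, another melanosome and lysosome glycoprotein, went the other way (486 and 1273 CPM), as did the copper transporter ATP7A (17.3 and 38.4 CPM).

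Among the 15 protein-coding genes with the largest decreases, 8 were on these lists of lineage genes. The first was COL9A3, a chain of type IX collagen, at 915 and 2.65 CPM (343-fold, 95% exact interval 251 to 480). The second was MMP8 (chr11:102711796-102727050, minus strand), the neutrophil collagenase, which had 3016 counts in the sensitive library and none in the resistant, at least 974-fold lower against a floor of 3 counts. FXYD3, a regulator of the sodium pump, had 3015 and 6 counts. TGFA, a ligand of the EGF receptor, was at 172 and 0.334 CPM, and the metalloproteinase inhibitor TIMP3 at 1721 and 13.0 CPM. NFATC2, a calcium-dependent transcription factor, was at 257 and 1.20 CPM. PCDH1, a protocadherin, had 1621 and 2 counts, a ratio of 785 whose exact interval of 217 to 6490 shows how little 2 counts can tell.

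**Figure D2:**
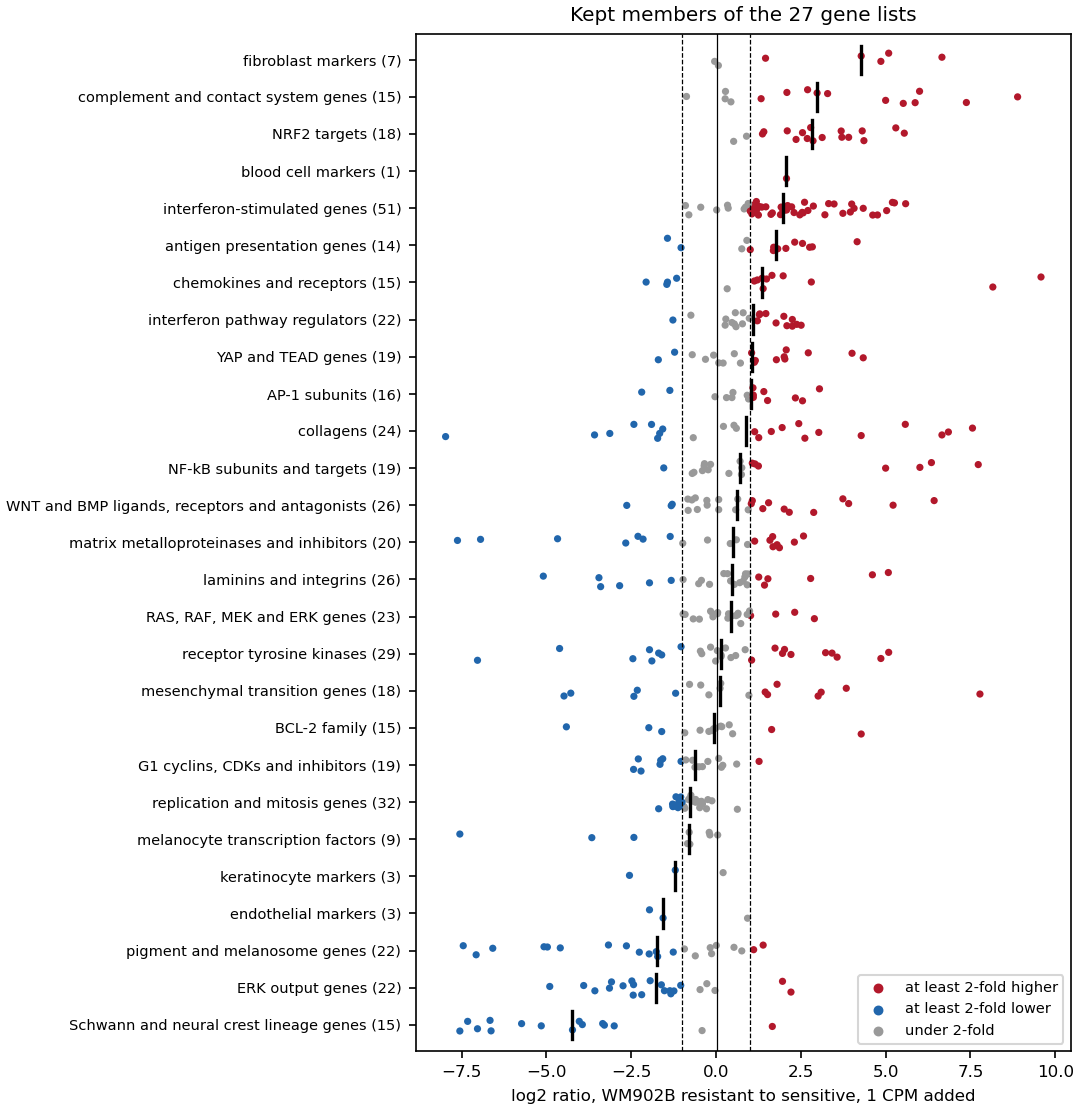
Log2 ratio, resistant to sensitive, of each kept member of the 27 gene lists in WM902B, 1 point per gene, with the number kept in parentheses. Black bars are list medians, the solid line is the median of all genes and the dashed lines mark 2-fold. Complement, NRF2 target and interferon-stimulated genes lie to the right, and Schwann lineage, ERK output and pigment genes to the left. Lists with 3 kept members or fewer are shown for completeness.

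Genes that ERK signalling switches on were low in the resistant library. Of 22 ERK output genes, all kept, 17 were lower and 2 higher, with a median log2 ratio of -1.78. The ETS factor ETV4 was at 173 and 4.84 CPM (-4.90), and its relatives ETV5 (138 and 14.7 CPM) and ETV1 (81.8 and 8.81 CPM) were lower too. Feedback inhibitors of the cascade were reduced alike, with the ERK phosphatase DUSP6 at 120 and 7.14 CPM, DUSP4 at 440 and 78.1 CPM, SPRY2 at 105 and 7.93 CPM and SPRY4 at 236 and 42.5 CPM. CCND1, the cyclin that carries mitogenic signals into the cell cycle, was at 2822 and 523 CPM and was among the 3 lower genes with the highest mean CPM. EGR1 (-0.27), PHLDA1 (-0.47) and SPRED3 (-0.03) stayed within 2-fold, and the ephrin receptors EPHA2 (1.96) and EPHA4 (2.21) were higher. MYC was at 103 and 49.4 CPM, just past 2-fold lower.

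Of the 23 kept genes of the cascade itself, from RAS to ERK, none was lower and 4 (17.4%) were higher, a share near the 13.9% of all genes. BRAF was at 28.5 and 39.5 CPM and NRAS at 168 and 173 CPM. MAP2K1, the MEK1 gene, stood closest to the lower threshold at -0.97. The 4 higher genes were MAP3K8 (0.890 and 13.2 CPM), a kinase that phosphorylates MEK independently of RAF, the scaffold KSR1 (6.06 and 34.3 CPM), RRAS (14.3 and 50.8 CPM) and MRAS (49.2 and 101 CPM).

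Receptor tyrosine kinases differed in both directions. Of 29 kept, 10 were higher and 8 lower, and the median was 0.15. Receptors of platelet-derived growth factor had the largest increases, PDGFRA at 2.04 and 103 CPM (5.09) and PDGFRB at 9.31 and 298 CPM (4.86). EGFR was at 3.37 and 46.0 CPM, while its relative ERBB3 was nearly lost and ERBB2 was level (50.0 and 60.8 CPM). The WNT5A receptor ROR2 (0.323 and 14.8 CPM), EPHB2 (0.453 and 12.6 CPM) and PTK7 (31.3 and 130 CPM) were higher as well. AXL, often raised in dedifferentiated melanoma, was already at 125 CPM in the sensitive cells and at 261 CPM in the resistant, 1.05 on the log2 scale. MET was lower (19.7 and 4.59 CPM), as were MERTK (49.7 and 1.08 CPM) and TYRO3 (129 and 42.1 CPM), which belong to the same receptor family as AXL.

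Subunits of AP-1, the dimeric factor that answers growth and stress signals, differed in both directions. Of 16 kept, 8 were higher and 2 lower, with a median of 1.02. JUN was at 36.5 and 310 CPM (3.05), FOSL2 at 67.5 and 401 CPM (2.55) and ATF3 at 2.72 and 17.8 CPM (2.34). FOSL1, which is also an ERK output gene, was lower at 280 and 60.4 CPM (-2.19). FOS (0.96) and FOSB (0.92) fell just short of 2-fold.

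YAP and TAZ act with TEAD factors to read cell shape and tension. Of 19 kept genes of this pathway 10 were higher and 2 lower, with a median of 1.05. The targets F3, the tissue factor gene (7.09 and 163 CPM), CYR61 (11.6 and 202 CPM), CTGF (40.6 and 142 CPM), AMOTL2 (53.0 and 226 CPM) and CRIM1 (85.8 and 571 CPM) were higher. Of the coactivators themselves, YAP1 stayed within 2-fold (113 and 165 CPM) and WWTR1, which encodes TAZ, was lower (352 and 108 CPM).

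Interferon-stimulated genes were higher almost throughout. All 51 members of this list were kept, 41 were higher and none was lower, with a median log2 ratio of 1.97 beside 0.03 for all genes. BST2, which tethers budding virus to the membrane, was at 1.87 and 137 CPM (5.59). In the other 4 sensitive libraries BST2 ranged from 81.3 to 189 CPM, so the sensitive WM902B library was the low one. The summed CPM of the whole list was also lowest in WM902B among the 5 sensitive libraries, at 1742, while the highest was 2833. XAF1 had 1 and 598 counts, IFI44L 1 and 571, RSAD2 2 and 443, and TRIM22 and MX2 had none in the sensitive library and 475 and 225 in the resistant, so that TRIM22 was at least 163-fold higher. Members with many counts in the sensitive library could differ less, with ISG15 at 60.1 and 228 CPM and IFIT3 at 47.1 and 206 CPM. The 10 members within 2-fold included LY6E (-0.90), ISG20 (-0.80), PLSCR1 (-0.45) and HERC5 (0.02).

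The transducers of the interferon signal were higher in part. Of 22 kept regulators 11 were higher and 1 was lower, with a median of 1.10. STAT2 (42.9 and 208 CPM) and IRF9 (2.21 and 11.9 CPM), which are parts of the factor that binds the interferon response element, were higher, and so were IRF1 (20.5 and 111 CPM) and the double-stranded RNA receptor TLR3 (5.76 and 31.1 CPM). The DNA sensor adaptor TMEM173, also known as STING, was at 13.6 and 61.3 CPM, whereas MB21D1, the DNA sensor cGAS upstream of it, was at 42.7 and 25.2 CPM. The lower gene was the interferon gamma receptor chain IFNGR2 (73.5 and 29.9 CPM). IFNB1 and IFNL1 had no counts in either library, which allows up to 0.194 CPM in the sensitive and 0.200 CPM in the resistant library.

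Genes of antigen presentation on MHC class I were higher. Of 14 kept members of the list, 10 were higher and 2 lower, and the 2 lower ones were CD74 (78.0 and 28.4 CPM) and CIITA (22.9 and 10.7 CPM), which serve MHC class II. HLA-B was at 35.7 and 654 CPM (4.16) and HLA-C at 121 and 509 CPM. B2M, the shared light chain, was at 262 and 1780 CPM, and NLRC5, the class I transactivator, at 8.93 and 69.9 CPM. Among the 5 sensitive libraries the summed CPM of this list was lowest in WM902B, at 658, while the highest was 2815. HLA genes resemble each other closely, and how reads shared between copies were divided is not stated, so the values of single HLA genes are uncertain. HLA-E, TAP1 and PSMB8, which most cells use, were listed at 0 in both libraries, and for these genes the 0 may be a failed estimate.

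Because these genes were higher together, their promoters were searched for the interferon response element TTTCNNTTT on both strands, in the 250 bases before and 50 after the first start that RefSeq lists for each gene (GRCh38.p14). Of 41 kept interferon-stimulated genes with a promoter in the table, 34 (82.9%) held it, beside 7.22% of 10934 kept genes, 11.5% of the genes that were higher, 6.30% of those that were lower and 10.6% of all 27305 promoters. The stretches below were picked because they hold the element, and each gives 60 bases in the direction of transcription with the element in capitals. For RSAD2, described above, the window searched (chr2:6865635-6865934) held none, but any later start within this gene was not searched. IFIT1 was at 11.3 and 79.3 CPM. In BST2 and B2M overlapping copies run together.
BST2 (chr19:17405723-17405782, minus strand): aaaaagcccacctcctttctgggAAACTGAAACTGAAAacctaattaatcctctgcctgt
B2M (chr15:44711351-44711410, plus strand): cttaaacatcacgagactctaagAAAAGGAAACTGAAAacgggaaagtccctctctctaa
IFIT1 (chr10:89392488-89392547, plus strand): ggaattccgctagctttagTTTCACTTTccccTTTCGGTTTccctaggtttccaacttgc
XAF1 (chr17:6755989-6756048, plus strand): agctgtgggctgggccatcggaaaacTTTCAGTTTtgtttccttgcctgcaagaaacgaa
TYR (chr11:89177744-89177803, plus strand): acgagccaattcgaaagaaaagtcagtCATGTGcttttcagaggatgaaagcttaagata
The last stretch, from a pigment gene that was lower, shows in capitals the box CATGTG that MITF can bind. The MLANA promoter did not hold this box. The DCT window held none either, but it (chr13:94549357-94549656) lay outside the gene as annotated (chr13:94436811-94479682, minus strand). The promoter at the annotated DCT start was thus not searched. The box occurred in 8 of 18 pigment gene promoters (44.4%). Its share was 9.97% for promoters of lower genes and 6.75% for those of all kept genes. It was also in 4 of 12 promoters of AP-1 subunits (33.3%) and 3 of 12 of NRF2 targets (25.0%). In the other lists searched the share ran from 4.88% to 15.4%. The AP-1 motif TGANTCA was found in 6.44% of the promoters of higher genes and 5.17% of those of lower genes, beside 4.58% of all kept genes, and the TEAD motif GGAATG in 13.2% and 10.9%, beside 11.0%. TGACNNNGC, the core of the element bound by NRF2, was chosen after the values were seen and can overlap the AP-1 motif. It was in 3 of 12 promoters of NRF2 targets (25.0%) and in 14.9% of all kept genes. The same motif was in 10 of 41 promoters of interferon-stimulated genes (24.4%), so its share was not particular to NRF2 targets. In the other lists searched the share ran from 0% to 16.7%. A match of letters is not evidence of binding, and none of these shares was tested.

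The complement system, whose proteins are secreted and cleave each other on target surfaces, was higher in most of its kept genes. Of 15 kept members 11 were higher and none was lower, with a median log2 ratio of 2.98 that depended on the 1 CPM added and was 1.46 with 5 CPM added. Among the 5 sensitive libraries the summed CPM of this list was lowest in WM902B, at 349, while the highest was 1942. C1S was at 0.649 and 781 CPM and C1R at 2.18 and 530 CPM, and these 2 proteases form the start of the classical pathway. In the other sensitive libraries C1S ranged from 6.97 to 65.9 CPM. The central component C3 was at 0.658 and 105 CPM, and CLU, a chaperone that also restrains complement, at 2.00 and 175 CPM. SERPING1, the inhibitor of C1R and C1S, was higher too, at 11.4 CPM in the resistant library. The membrane-bound regulators CD46 (0.27), CD59 (0.44) and CD55 (-0.87) stayed within 2-fold.

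Chemokines gave the largest single increase. CXCL14 had 4 counts in the sensitive and 14455 in the resistant library, a 3730-fold difference whose 95% exact interval runs from 1456 to 13691, because it rests on 4 counts. CXCL12 (chr10:44370165-44386493, minus strand), the ligand that guides cells bearing CXCR4, had no counts in the sensitive library and 4267 (285 CPM) in the resistant, at least 1468-fold higher. Its receptors were hardly seen in either library, with CXCR4 at 2 and 0 counts and ACKR3 at none. Of 44 chemokines and receptors in the file 15 were kept, of which 10 were higher and 4 lower. Most of the higher ones (CXCL12, CXCL14, CXCL1, CCL2, CCL5, CCR10 and CCRL2) passed the filter through the resistant library alone. The lower CXCL5 and CCL20 passed it through the sensitive library alone. The filter thus partly set these directions, and with no filter the median log2 ratio of the list was 0.06. The summed CPM of the list was also lowest in WM902B among the 5 sensitive libraries. CCL5 had 1 and 97 counts, and CXCL8 (9.51 and 2.85 CPM) and CCL20 (4.80 and 0.391 CPM) were lower. The interferon-induced chemokines CXCL9, CXCL10 and CXCL11 had no more than 4 counts in either library.

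NF-kB subunits were level, but some genes that the factor can switch on were not. Of 19 kept members of the list, 7 were higher and 1 lower. NFKB1 (-0.40), RELA (0.38), RELB (-0.34) and NFKB2 (-0.70) stayed within 2-fold, as did the adhesion molecule ICAM1 (168 and 107 CPM). TNFRSF11B, the decoy receptor osteoprotegerin, was at 0.388 and 293 CPM, VCAM1 had no counts and 1208, OLR1 had none and 949, and IL6 had 2 and 525. These last genes passed the filter through the resistant library alone, so the filter partly set their direction. With no filter the median log2 ratio of the list was 0.00.

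Genes of the matrix differed in both directions. Of 24 kept collagen genes 12 were higher and 8 lower. COL5A1, which nucleates fibrils, was at 0.636 and 308 CPM, COL8A1 at 0.582 and 182 CPM, COL12A1 at 15.5 and 785 CPM and COL6A2 at 25.5 and 216 CPM. Chains that join the same protein did not always move together, since COL5A2 (1.81 and 3.08 CPM) stayed within 2-fold and COL6A3 was lower (44.5 and 4.20 CPM), like COL5A3 (40.2 and 2.45 CPM) and COL9A3. Fibronectin, FN1, had the highest mean CPM of all lower genes, at 7097 and 1425 CPM (-2.32). Among 26 kept laminins and integrins 6 were higher and 6 lower, led by the laminin chain LAMA5 (14.9 and 537 CPM) and by ITGA8, which had no counts and 352, and at the other end by the laminin receptor chain ITGA6 (283 and 7.34 CPM), ITGB8 (64.7 and 5.01 CPM) and ITGA7 (23.6 and 1.33 CPM).

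Proteases of the matrix were likewise divided. Of 20 kept metalloproteinases and inhibitors 8 were higher and 7 lower. MMP2, a gelatinase, was at 278 and 885 CPM and ADAMTS1 at 61.5 and 310 CPM. MMP16 (57.0 and 1.28 CPM), MMP17 (126 and 19.1 CPM) and MMP1 (13.7 and 1.99 CPM) were lower beside MMP8. MMP14, which activates MMP2 at the cell surface, was level (477 and 640 CPM). PLAU, the urokinase that generates plasmin, was at 0.518 and 222 CPM. TIMP2 was higher (259 and 572 CPM) while TIMP3 was nearly lost.

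Mesenchymal transition factors showed no common direction, with 7 of 18 kept genes higher and 5 lower and a median of 0.13. FOXF1, a forkhead factor of embryonic mesenchyme, was at 0.906 and 416 CPM (7.78), and the noncoding RNA FENDRR, which begins beside it on the opposite strand, had 3 and 2895 counts and was picked after its values were seen. ZEB1 was at 4.58 and 46.9 CPM, while ZEB2 was level (103 and 112 CPM). N-cadherin, CDH2, was lower (52.8 and 1.78 CPM), as was PRRX1 (34.6 and 0.601 CPM), and E-cadherin, CDH1, had 4 and 2 counts. VIM was level at 4393 and 3803 CPM.

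Among WNT and BMP genes, 11 of 26 kept were higher and 3 lower. WNT5A was at 48.2 and 362 CPM, and SOST, the secreted WNT antagonist sclerostin otherwise known from osteocytes, had no counts and 1276, at least 439-fold higher. The ligands BMP2 (0.388 and 50.6 CPM) and BMP7 (1.89 and 42.4 CPM) were higher, together with the BMP-responsive genes ID2 (10.3 and 150 CPM) and SMAD6 (17.6 and 81.8 CPM), whereas ID1 was level (155 and 129 CPM). The receptor FZD8 was lower (12.6 and 1.20 CPM). SOST and BMP2 passed the filter through the resistant library alone, and FZD8 through the sensitive library alone. With no filter the median log2 ratio of the list was 0.08.

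**Figure D3:**
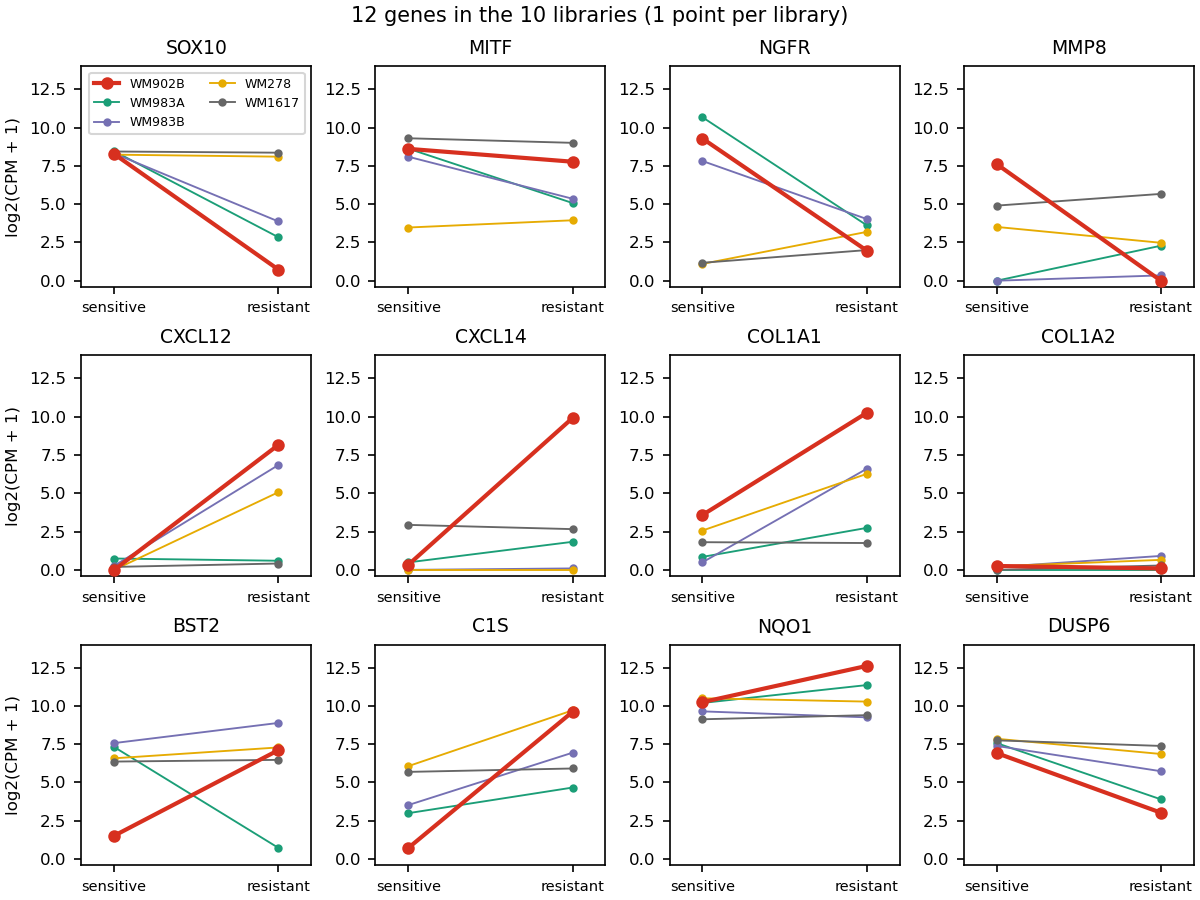
Level of 12 genes in the 10 libraries, as log2(CPM + 1), with a line joining the sensitive and the resistant library of each cell line and WM902B drawn thick. SOX10 is low in resistant WM902B, WM983A and WM983B, while MITF falls far less in WM902B than in those lines. CXCL14 is high in resistant WM902B alone among the 10 libraries, and COL1A2 is near 0 in all of them.

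Targets of NRF2, the factor that answers oxidative stress, were higher with few exceptions. All 18 were kept, 16 were higher and none was lower, with a median log2 ratio of 2.82. NQO1, a quinone reductase, was at 1211 and 6237 CPM, and FTL, the ferritin light chain, at 502 and 6577 CPM, and these genes had the highest mean CPM of all higher genes. Next by mean CPM was MTCO1P12, a nuclear copy of a mitochondrial gene (1234 and 3729 CPM), but as the file lists no gene of the mitochondrial genome, whether reads of the mitochondrial message were counted there was not tested. Genes of antioxidant defence were raised together, with TXNRD1 at 331 and 2406 CPM and SRXN1 at 70.1 and 1071 CPM. The cystine transporter SLC7A11 was at 47.5 and 960 CPM and GCLM at 69.4 and 410 CPM. The export pumps ABCC2 (6.70 and 359 CPM) and ABCC3 (2.75 and 147 CPM) had the largest ratios, 5.55 and 5.30. SQSTM1, the autophagy receptor p62, was also at 371 and 3415 CPM and was singled out after its values were seen. AKR1B10 (0.52) and ME1 (0.90) stayed within 2-fold. AKR1C1, AKR1C2 and AKR1C3 were all higher (3.13, 2.79 and 4.36), but they are near-identical copies among which reads can be misassigned.

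Proliferation genes were moderately lower. Of 32 genes of replication and mitosis, all kept, 12 were lower and none was higher, and the median was -0.76. MCM2 (429 and 133 CPM), MCM3 (264 and 108 CPM), TYMS (151 and 62.2 CPM) and AURKB (116 and 47.4 CPM) were lower, MKI67 (-0.76) and TOP2A (-0.28) stayed within 2-fold, and KIF20A was at 0.63. Among G1 regulators 7 of 19 were lower and 1 higher, with CDK2 at 244 and 49.1 CPM and the inhibitors CDKN2A at 416 and 132 CPM and CDKN1C at 14.5 and 2.34 CPM. CDKN1A (0.16) and CDKN1B (0.20) were level, and RBL2, a pocket protein of resting cells, was higher (32.2 and 79.0 CPM).

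In the BCL-2 family 2 of 15 kept genes (13.3%) were higher and 3 lower, beside 13.9% and 9.55% of all genes. The proapoptotic BMF was at 10.3 and 219 CPM (4.28) and BCL2L11, the gene of BIM that ERK normally restrains, at 13.7 and 45.0 CPM (1.64). BCL2A1, a survival gene of the melanocyte lineage, was at 69.9 and 2.34 CPM (-4.41), and BCL2 (-1.60) and PMAIP1 (-1.98) were lower too. MCL1 (-0.21) and BCL2L1 (-0.01) were level.

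The other large increases belonged to genes of varied function. FAM65C, now named RIPOR3, had 4 and 4694 counts, and GLDN, which gathers sodium channels at nodes of Ranvier, had 3 and 4148. F2RL2, a protease-activated receptor that thrombin cleaves, was at 0.259 and 256 CPM, and the organic anion transporter SLCO2B1 at 0.194 and 211 CPM. WISP1, a matricellular protein of the CCN family, was at 0.319 and 158 CPM and PLEKHA6 at 0.259 and 149 CPM. Each of these rests on 3 to 5 counts in the sensitive library, so that the exact interval for GLDN, for example, spans 488 to 6923-fold.

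By position, chromosome 5 had the highest median, by a small margin. Chromosome medians of the log2 ratio ran from -0.06 on chromosome 12 to 0.24 on chromosome 5, where 163 of 786 kept genes (20.7%) were higher. The next highest median was 0.11 on chromosome 7, where 16.6% were higher. In WM983A the medians of the same genes ran wider, from -0.80 on chromosome 22 to 0.38 on chromosome 9. Some of the higher genes on chromosome 5 lay in the protocadherin clusters. There a run of 12 neighbouring kept genes from PCDHGA1 to PCDHGA8 were all higher, with log2 ratios of 1.00 to 2.31. These genes share exons and overlap, so that reads cannot be assigned to each with certainty. Whether the clusters account for the median of the chromosome was not tested. Of the 1803 higher protein-coding genes 721 (40.0%) had a kept neighbour that was also higher, while 25.3% of all 12818 had such a neighbour. For the 1272 lower genes the shares were 28.2% and 18.4%. Runs of higher genes included C1S, C1R and C1RL with LPCAT3 and CLSTN3 on chromosome 12, GBP1 to GBP4 on chromosome 1 (2.27 to 4.62) and CASP4, CASP1 and CARD16 on chromosome 11. CASP1 had 6 and 2077 counts and its close copy CARD16, which can share its reads, 1 and 1155, and both were chosen after their values were seen. A run of 4 lower genes held MTAP, CDKN2A and CDKN2B with DMRTA1 on chromosome 9, at -1.65 to -1.35. Runs were read from the calls after the values were seen.

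**Figure D4:**
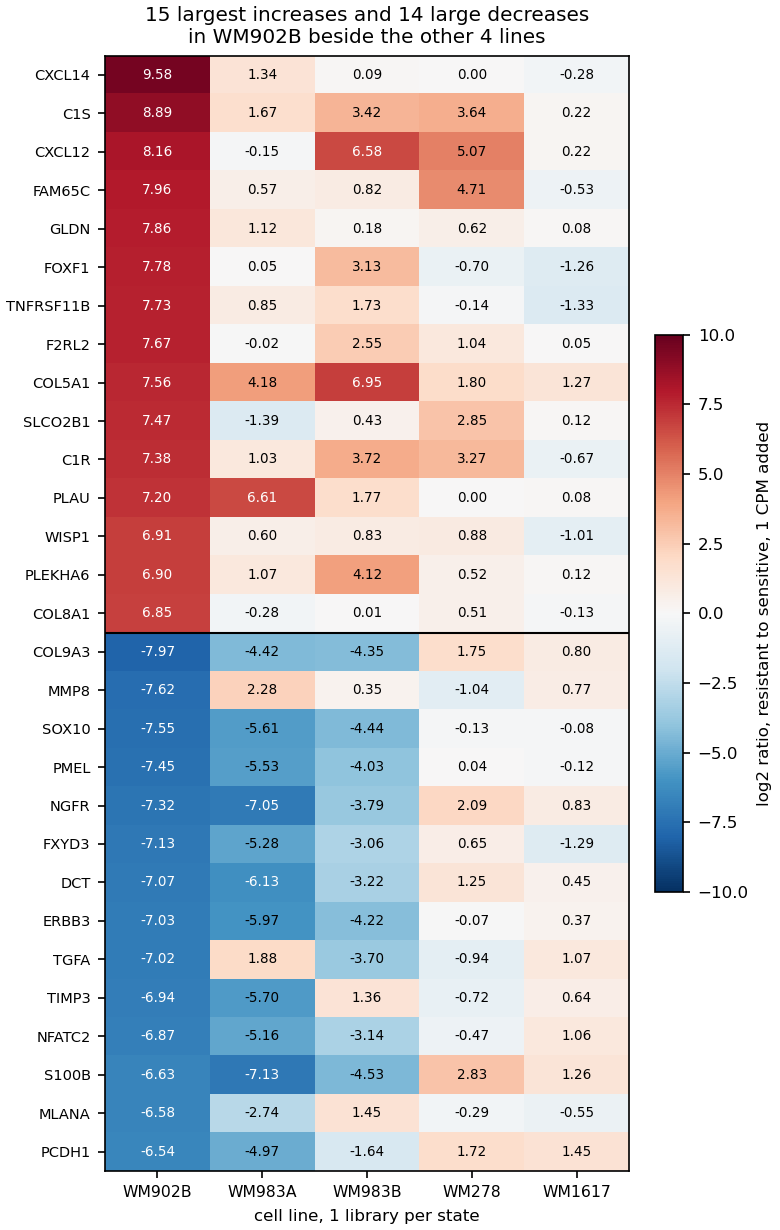
Log2 ratio, resistant to sensitive, of the 15 protein-coding genes with the largest increases and 14 of the 15 with the largest decreases in WM902B, beside the ratios of the same genes in the other 4 lines. Each value compares 2 libraries. COL5A1 is above 1 in all 5 lines, whereas the ratios of CXCL14, GLDN and COL8A1 are far higher in WM902B than elsewhere. The level of COL8A1 is not particular to WM902B, as it was at 102 and 146 CPM in sensitive and resistant WM278.

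The calls in WM902B were set beside those in the other lines. Of the genes higher in WM902B, 973 (43.4% of those that could be read there) were also higher in WM983B, where 13.1% of the kept genes were higher, and they made up 45.6% of the WM983B calls. The counts were 628 (27.5%) in WM983A, where 12.3% of kept genes were higher, 608 (26.6%) in WM278, where 8.54% were, and 38 (1.66%) in WM1617, where 0.947% were. Of the genes lower in WM902B, 682 (43.4%) were lower in WM983A, 558 (35.8%) in WM983B, 297 (18.9%) in WM278 and 49 (3.12%) in WM1617, beside 17.2%, 7.69%, 4.32% and 1.62% of the kept genes. Genes also went the opposite way. Of those higher in WM902B, 403 (17.7%) were lower in WM983A, 70 (3.12%) in WM983B, 86 (3.77%) in WM278 and 101 (4.42%) in WM1617. Of all kept genes, 17.2%, 7.69%, 4.32% and 1.62% were lower in these lines. In WM1617 the opposite calls thus outnumbered the shared ones. Of those lower in WM902B, 155 (9.85%) were higher in WM983A, 84 (5.39%) in WM983B, 137 (8.71%) in WM278 and 53 (3.37%) in WM1617. Of all kept genes, 12.3%, 13.1%, 8.54% and 0.947% were higher in these lines. Except in WM1617, the opposite shares were therefore near or below those of all kept genes. These shares are descriptions, and WM983A and WM983B come from the same patient, as do WM278 and WM1617. Another 597 of the higher genes (26.1%) and 430 of the lower (27.3%) stayed within 2-fold in all 4 other lines, as did 55.3% of all kept genes.

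List by list the lines differed. The Schwann lineage list had medians of -5.61 in WM983A and -3.74 in WM983B, beside -4.23 in WM902B, but -0.07 in WM278 and 0.37 in WM1617. SOX10 was between 299 and 349 CPM in all other sensitive libraries and was at 6.15 CPM in resistant WM983A and 13.6 CPM in resistant WM983B, against 273 and 327 CPM in resistant WM278 and WM1617. MITF, within 2-fold in WM902B, was at -3.55 in WM983A and -2.74 in WM983B. Interferon-stimulated genes had medians of 1.83 in WM983B and 0.97 in WM278, but -0.62 in WM983A and -0.23 in WM1617. For NRF2 targets the medians were 3.62 in WM983A, 1.05 in WM983B, 0.68 in WM278 and 0.04 in WM1617, and NQO1 was raised by more than 2-fold in WM983A alone among the others (1.17).

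For single genes the contrast was as wide. CXCL12 reached 114 CPM in resistant WM983B and 32.6 CPM in resistant WM278, and was under 1 CPM in the remaining 6 libraries of the other lines. CXCL14, at 965 CPM in resistant WM902B, did not pass 6.66 CPM in any library of the other lines. MMP8 was at 195 CPM in sensitive WM902B, at 28.9 and 49.8 CPM in sensitive and resistant WM1617, at 10.4 and 4.56 CPM in WM278 and at most at 3.87 CPM in WM983A and WM983B. SOST was at a log2 ratio of 0.45 in WM983A and 0.00 in the other lines. Only 6 genes were higher in all 5 lines, namely COL18A1, COL5A1, SAMD11, SOCS3, SYCP2 and SYNPO, and VEPH1 alone was lower in all 5, all of them named after their values were seen.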

How the data were processed

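mRNA of 10 cultures, 5 melanoma lines in 2 states, was selected with oligo-dT beads, prepared with the NEB Ultra II RNA kit and sequenced as 1 library each. The authors used HISAT2 with the GRCh38 genome for single-end reads and StrandNGS for gene values. Versions, annotation, strand and the sharing of reads among copies are not given in the sources used here. The deposited raw values are expected counts, of which 24.4% of those above 0 are whole numbers in the WM902B libraries. The authors' normalized columns hold log2 ratios to the sensitive line and were not used. For sensitive WM983B, 455 values that had turned into dates were left out.

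Counts were divided by library totals to CPM in Python 3.11.15 (numpy 2.4.6, pandas 2.3.3, scipy 1.17.1, matplotlib 3.10.9). Ratios were taken as log2(CPM + 1), for genes with at least 20 counts in either library. Intervals are exact 95% Clopper-Pearson intervals of rounded counts, and they and the floor of 3 counts cover counting error only. Positions and gene types are from GENCODE release 44, matched by Ensembl ID for 98.9% of genes. Scaling by edgeR 4.0.16 and DESeq2 1.42.0 (R 4.3.3), other pseudocounts, filters and folds were alternatives. The ratio and its interval were tested on simulated data. With 1 library per state no test was made. The 27 gene lists and the comparison were chosen with earlier results of these data known. Named genes are CXCL12, MMP8 and SOX10, the 15 largest changes each way among protein-coding genes, the 3 called each way with the highest mean CPM, and the first 4 and up to 6 most changed of each list; other genes named are list members given as examples or are marked. A few genes that the rule names are not reported here.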

Additional observations from a re-analysis of the deposited data

Results flagged for a closer look

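For 7 gene lists the median log2 ratio, resistant to sensitive, had opposite signs in WM902B and WM983A, with both medians at least 0.5 in size. Each line had 1 library per state, so the difference between the lines was not tested. The medians were 1.97 in WM902B and -0.62 in WM983A for interferon-stimulated genes, 1.10 and -0.51 for interferon pathway regulators, and 1.76 and -0.80 for antigen presentation genes. They were 1.36 and -0.56 for chemokines and their receptors, 0.87 and -1.33 for collagens, 0.51 and -1.41 for matrix metalloproteinases and inhibitors, and 4.28 and -1.0 for fibroblast markers. The WM902B median of metalloproteinases and inhibitors was -0.61 when 100 counts were required, so its sign depends on that filter. The medians cover genes kept in WM902B, some only through the library where they were high. With no filter the WM902B medians were 0.06 for chemokines and receptors, 0.36 for antigen presentation and 0.01 for collagens. They were 0.09 for metalloproteinases and inhibitors and 0.10 for fibroblast markers, and none of these then reached 0.5. The median of interferon pathway regulators was 0.79, and all interferon-stimulated genes were kept. Single genes of the 7 lists were as far apart. BST2 had a log2 ratio of 5.59 in WM902B and -6.59 in WM983A, and HLA-B one of 4.16 and -4.44. In the sensitive libraries BST2 was at 1.87 CPM in WM902B and 158 CPM in WM983A, and in the resistant libraries at 137 and 0.657 CPM. Among lists with at least 5 kept members, no median was opposed in this way between WM902B and WM983B, WM278 or WM1617.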

How the results depend on the processing

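No library had a replicate, so the spread between cultures is unknown and the intervals cover counting error only. No paired analysis was possible because the groups compared hold 1 library each and no test was made. Ratios of genes with few counts depend on the CPM added before the logarithm. Scaling by DESeq2 size factors or edgeR TMM factors moved the median of all genes by -0.04 and -0.07 log2 units and gave 2189 higher and 1678 lower genes, or 2131 and 1746. No value past 2-fold changed sign under the alternatives run, but the median of metalloproteinases and inhibitors turned from 0.51 to -0.61 when 100 counts were required. Of the counts of list members, 452 stayed within 1.5 times the reported one and 34 did not. Of the list medians, 169 stayed within the range that counting error gave them and 46 did not, and of the ratios of named genes 739 did and 193 did not. With 5 CPM added the medians were 1.46 for complement, 2.58 for NRF2 targets, 0.56 for chemokines and receptors and -2.86 for the Schwann lineage, so that NRF2 targets then exceeded complement. With no filter, which adds genes at or near 0, the median was 0.10 for fibroblast markers, 0.06 for chemokines and receptors, 0.36 for antigen presentation and 0.01 for collagens.

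With either scaling 1 gene from RAS to ERK was lower, MAP2K1 at -1.02 and -1.04. With 0.5 CPM added, 5 WNT and BMP genes were lower and 1 endothelial marker was higher. With 5 CPM added, 1269 genes were higher and 934 lower, with 1 higher pigment gene, 6 higher and 0 lower chemokines and receptors, 1 lower antigen presentation gene, 4 higher metalloproteinases and inhibitors, 1 lower keratinocyte marker and 0 lower endothelial markers. When 100 counts were required, 6 chemokines and receptors were higher and 2 lower, 4 metalloproteinases and inhibitors were higher, and 1 keratinocyte and 0 endothelial markers were lower. At 3-fold, 1099 genes were higher and 725 lower. Replication and mitosis genes then had 1 lower member in place of 12. Higher and lower members were then 3 and 1 for AP-1, 5 and 1 for chemokines and receptors, 7 and 0 for interferon regulators, 4 and 0 for NF-kB, and 7 and 1 for WNT and BMP genes. Also at 3-fold, 0 pigment and 0 G1 genes and 3 laminins and integrins were higher, while 1 YAP and TEAD gene, 0 antigen presentation genes, 1 keratinocyte marker and 1 endothelial marker were lower. The stricter threshold or filter and the larger addition lower these counts by construction.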
